A study of Mus musculus with 4 samples.

Results

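Early-replicating domains of 2 Mb or longer were examined in the population-based replication timing (RT) profile of diploid mouse embryonic stem cells (mESCs). RT is the log2 of early over late S-phase reads in a bin of 50 kb, so a bin with RT above 0 had more early than late signal. A domain was selected on RT itself, as a maximal run of at least 40 consecutive bins with RT above 0 on the 19 autosomes and with no missing bin. Of 955 runs of bins with RT above 0, 138 were that long. They held 10197 of the 47928 autosomal bins, 21.3% (exact 95% binomial interval 20.9 to 21.6, for counting of bins only), and 50.6% of the 20157 bins with RT above 0. The cells were F121-9, a hybrid line of cas and 129 genomes, grown in N2B27+2i+LIF medium, and the fractions were sorted by DNA content after a pulse of BrdU, an analog that marks newly made DNA. Each fraction was sequenced in 2 libraries, all from untreated cells of this one line. The deposited profile gives 1 value per bin for all 4 libraries, so the spread between replicates and the read depth behind each value are unknown. Expression was not measured, so the mESC label could not be checked against marker genes.

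Mammalian chromosomes replicate in large domains that start at characteristic times of S-phase. Early-replicating domains are generally rich in genes, GC bases and CpG islands and lie in the open compartment of the nucleus, whereas late-replicating domains are gene poor and often lie at the nuclear periphery. The borders between them are timing transition regions, in which RT changes gradually along the DNA. Many developmental genes change their timing on differentiation, and mESCs are the usual starting point for following such changes.

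Promoters of 4 genes are shown first because they span the range of sequence and timing found inside these domains. The sequences are from RefSeq on GRCm38.p6, the assembly whose primary chromosomes are those of mm10. Each runs 5′ to 3′ from 250 bases before to 50 bases after the gene start, with every CpG in capitals. Rplp0 encodes a protein of the ribosomal stalk, Pou5f1 a transcription factor of the pluripotent state, Agap1 an activator of ARF GTPase activity, and Stfa2 a stefin, an inhibitor of cysteine proteases.
Rplp0, chr5:115559217-115559516, plus strand: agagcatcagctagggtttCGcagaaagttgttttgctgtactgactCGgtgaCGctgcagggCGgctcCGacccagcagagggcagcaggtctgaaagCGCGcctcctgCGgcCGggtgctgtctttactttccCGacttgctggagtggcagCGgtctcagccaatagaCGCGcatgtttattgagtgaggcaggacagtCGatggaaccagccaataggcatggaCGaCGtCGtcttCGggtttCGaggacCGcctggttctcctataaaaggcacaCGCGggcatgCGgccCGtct
Pou5f1, chr17:35505782-35506081, plus strand: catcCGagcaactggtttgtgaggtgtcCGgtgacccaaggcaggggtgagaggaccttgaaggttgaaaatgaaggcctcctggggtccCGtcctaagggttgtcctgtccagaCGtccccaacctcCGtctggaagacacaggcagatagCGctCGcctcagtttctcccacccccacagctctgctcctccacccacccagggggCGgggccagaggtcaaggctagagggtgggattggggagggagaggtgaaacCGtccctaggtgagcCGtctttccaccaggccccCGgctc
Agap1, chr1:89454561-89454860, plus strand: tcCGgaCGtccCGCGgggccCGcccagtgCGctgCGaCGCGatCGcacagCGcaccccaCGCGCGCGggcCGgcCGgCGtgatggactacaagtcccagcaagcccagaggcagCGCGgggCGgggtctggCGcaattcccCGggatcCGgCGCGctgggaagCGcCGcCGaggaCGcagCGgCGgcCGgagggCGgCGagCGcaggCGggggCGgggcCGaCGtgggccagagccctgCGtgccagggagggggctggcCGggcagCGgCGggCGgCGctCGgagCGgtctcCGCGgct
Stfa2, chr16:36408314-36408613, minus strand: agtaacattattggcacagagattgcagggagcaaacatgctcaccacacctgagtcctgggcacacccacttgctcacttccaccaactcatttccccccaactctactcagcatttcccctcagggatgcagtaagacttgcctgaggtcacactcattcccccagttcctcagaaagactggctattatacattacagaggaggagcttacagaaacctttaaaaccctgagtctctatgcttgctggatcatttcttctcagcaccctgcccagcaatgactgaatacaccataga

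The Rplp0 promoter held 24 CpG and began in a bin with an RT of 3.71. That of Pou5f1 held 11 CpG, at an RT of 3.51. Agap1 had 50 CpG in the same length and a GC content of 80%, but lay at an RT of 1.49, in the domain with the lowest mean RT. Stfa2 had no CpG in this window and lay at an RT of 0.01, the lowest value found in the interior of any domain. CpG content and RT did not follow each other among these 4 chosen genes. Over all promoters studied in the domains, the median number of CpG was higher at higher RT. It was 8 at an RT of 0 to 1, 15 at 1 to 2, 18 at 2 to 3 and 19 above 3. On either strand the letters GGGCGG, the core of an Sp1 box, occurred in the windows of Rplp0, Pou5f1 and Agap1 and in 50.1% of all 14655 promoters matched. CCAAT occurred in those of Rplp0, Pou5f1 and Stfa2 and in 38.3% of all, and TATAAA in that of Rplp0 and in 12.5% of all.

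A second set of sequences, chosen after its values were seen, is the miR-290 cluster, a microRNA cluster known for its expression in mESCs, which lies in an early domain at the start of the profile of chromosome 7 (chr7:3000001-5250000, 2.25 Mb, 77 protein-coding gene starts, mean RT 2.61). All its members fell in 1 bin with an RT of 2.99. The mature sequences below are from RefSeq, with the seed (bases 2 to 8) in capitals, and the first 3 share the seed AAGUGCU.
miR-291a-3p: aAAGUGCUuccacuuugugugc
miR-294-3p: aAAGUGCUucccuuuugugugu
miR-295-3p: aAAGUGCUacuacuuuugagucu
miR-291b-3p: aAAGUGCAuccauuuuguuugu
miR-290a-3p: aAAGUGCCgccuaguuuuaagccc
miR-293-3p: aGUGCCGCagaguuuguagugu

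The miR-302 cluster, whose members miR-302b-3p and miR-302d-3p carry that seed too, was in a shorter early run on chromosome 3, at an RT of 2.22. Of 919 microRNA hairpins with an RT value, 521 (56.7%) were in the domains, against 44.8% of all protein-coding gene starts, and 177 were in late bins. Over the larger set of miRNA genes annotated in RefSeq it was 51.2% (582 of 1136). A single domain on chromosome 12 (chr12:108000001-113400000) held 67 of the 521, so hairpins were not independent of each other.

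The domains had a median length of 3.05 Mb, with quartiles of 2.35 and 4.35 Mb and a longest of 13 Mb. There were 19 of 5 Mb or longer and 3 of 10 Mb or longer. Together they covered 509.9 Mb. The threshold cut through a continuous distribution of lengths. Just inside it, 3 runs of 40 bins had mean RT values between 1.83 and 2.37, and just outside it, 7 runs of 39 bins had mean RT values between 1.51 and 2.71. Most domains ended where RT fell to 0 or below, which was so for 266 ends. The other ends were a missing bin (5 ends) or the last bin with a value on the chromosome (5 ends), so the domains concerned may go on beyond the run. The share of bins in domains differed widely between chromosomes, from 7.67% on chromosome 3 with 4 domains to 45.6% on chromosome 11 with 12 domains.

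**Figure D1:**
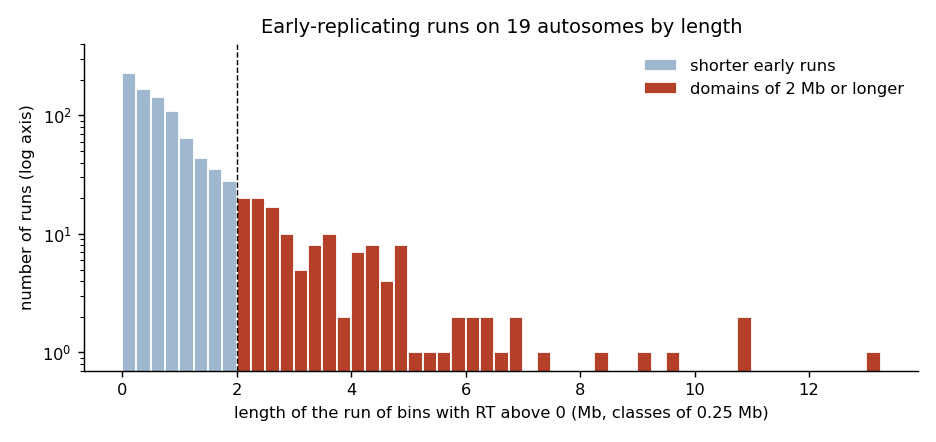
Number of runs of consecutive bins with RT above 0 (y axis, log scale) by length in Mb in classes of 0.25 Mb (x axis), on 19 autosomes. The dashed line is the 2 Mb limit, with the 138 domains in red to its right and the shorter runs in blue. The counts fall steadily through the limit and the longest run is 13 Mb.

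RT inside the domains was used to choose them and is given as a description. Mean RT per domain had a median of 2.43 and ranged from 1.27 to 3.34. The highest bin of a domain had a median RT of 3.72, and 110 of the 138 domains had a bin at or above 3.5. Of all autosomal bins at or above 3.5, 85.5% were in the domains, although these held 50.6% of early bins. Within the domains 43.0% of bins were at or above an RT of 3 and 10.4% were below 1. The median absolute deviation of a bin from the mean of its neighbors, scaled to an SD, was 0.14 per bin inside the domains. It is a measure of noise between bins and not between cultures. The scaling takes noise as independent between bins, so the value may be too low if the profile was smoothed.

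The longest domain was chr17:23350001-36350000, of 13 Mb and 260 bins, which includes Pou5f1 and genes of the major histocompatibility complex. Its mean RT was 3.12, with bins from 0.35 to 3.91, and 69.6% of its bins were at or above 3. It held 430 protein-coding gene starts, 33.1 per Mb, among them 18 zinc finger protein genes, 9 cytochrome P450 genes and 6 cytosolic ribosomal protein genes. Zscan10, a zinc finger gene of stem cells, started at an RT of 3.36 and Slc9a3r2, a scaffold of membrane transporters, at 3.65, whereas the pheromone receptor gene Vmn2r116 started in the first bin of the domain, at 0.35. Its longest gene, Btbd9, was 361 kb long and started at 3.15.

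The next in length were chr15:75500001-86450000 (10.95 Mb, mean RT 2.87), chr4:131600001-142500000 (10.9 Mb, 3.17), chr5:109450001-118950000 (9.5 Mb, 2.76) and chr11:113000001-122000000 (9 Mb, 2.95). The chromosome 15 domain had 24.0 gene starts per Mb and included Recql4, a helicase of replication initiation, at an RT of 3.78. The chromosome 4 domain had 19.2 per Mb and included Lin28a, an RNA-binding protein of the pluripotent state, at 3.57. The chromosome 5 domain had 13.4 per Mb and included Rplp0, and the chromosome 11 domain had 23.1 per Mb and included Grin2c, a glutamate receptor subunit, at 3.76. Among these 5 domains mean RT ran from 2.76 to 3.17, and gene density differed by more than 2-fold.

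The highest mean RT, 3.34, was in chr19:3100001-6700000, with 41.7 gene starts per Mb and 86.1% of bins at or above an RT of 3. It ended at missing bins with RT still above 3 on both sides of the gap (3.21 and 3.45), so it may be part of a longer early segment. Ndufs8 and Ndufv1, subunits of respiratory complex I, started there at 3.76 and 3.33. The densest domain was chr10:126650001-129150000, with 42.8 gene starts per Mb and a mean RT of 3.09. It included Cyp27b1, which makes the active form of vitamin D, at 3.81, and the ribosomal protein gene Rps26, but also 9 olfactory receptor genes. The first of the 9 by position, Olfr9, started at 2.92, near the end of the domain. RT was 1.99 in the next bin and 0.12 in the last bin of the domain. The lowest RT at an olfactory receptor start in any domain was also 0.12, so Olfr9 does not stand for all 9.

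At the other end of the range, chr1:88350001-90700000 had both the lowest mean RT, 1.27, and the fewest gene starts per Mb, 4.26, with 10 in 2.35 Mb. None of its bins reached an RT of 3. Its GC content was 46.9%, above the 41.9% of all autosomal bins, and a single gene, Agap1, covered 443 kb of it. The domain with the lowest GC content, 40.03%, was chr11:29050001-31200000, with a mean RT of 1.66 and 9.30 gene starts per Mb. Rps27a, a fusion of ubiquitin and a ribosomal protein, started there at 3.21 and Eml6, its longest gene, at 1.00. The highest GC content, 50.1%, was in chr5:138600001-140950000, with a mean RT of 2.54 and Mad1l1, a spindle checkpoint gene, as its longest gene.

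**Figure D2:**
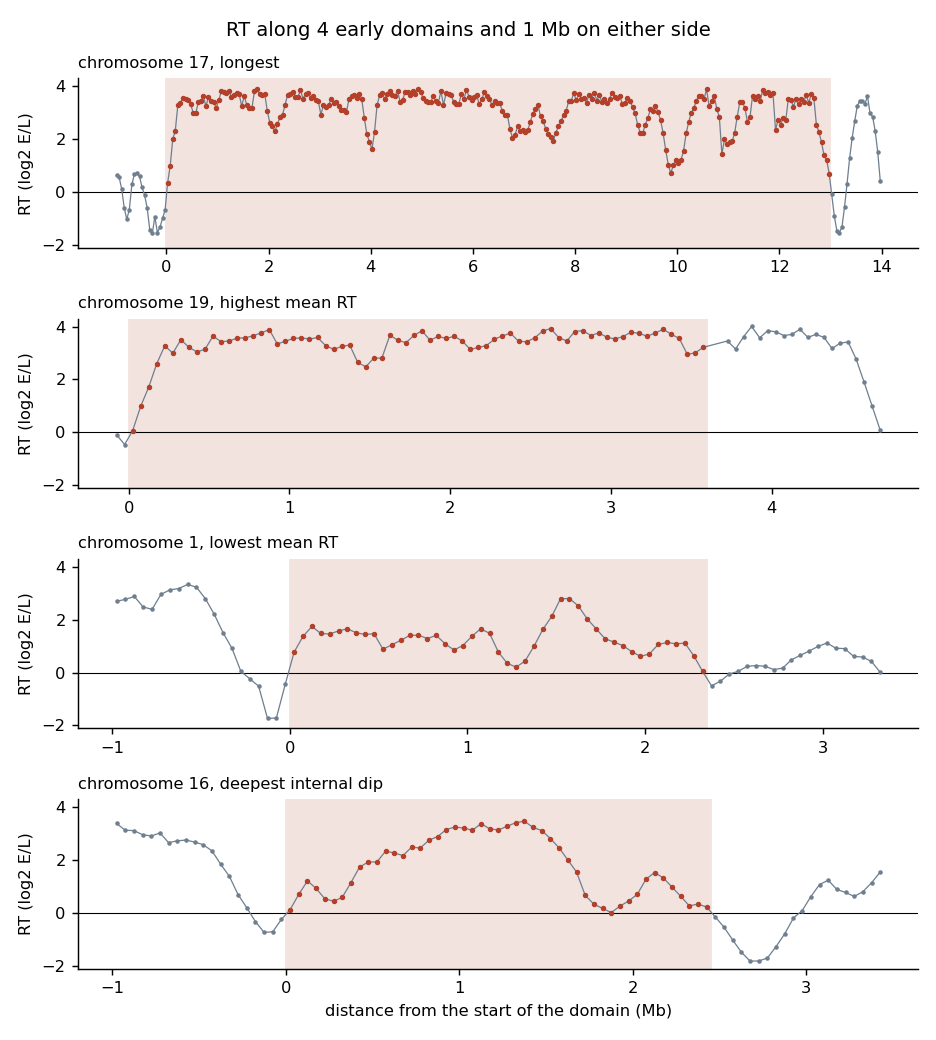
RT (log2 of early over late reads, y axis) by distance from the start of the domain in Mb (x axis) for 4 domains, with the domain shaded, its bins in red and up to 1 Mb on either side in gray. The 13 Mb domain of chromosome 17 stays mostly above an RT of 3, the chromosome 19 domain has a mean of 3.34, the chromosome 1 domain of 1.27, and the chromosome 16 domain falls to 0.01 in its interior.

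The domains were rarely flat. Counting only bins at least 10 bins (500 kb) from either border, the lowest RT was below 1 in 68 domains and at or above 2 in 24. The deepest dip, at 0.01, was in chr16:34550001-37000000, in a bin that overlaps Stfa2. This value is smaller than the noise of 0.14 between bins, so this domain could as well count as a pair of shorter runs. The next were at 0.02 in a bin with Otog, a protein of the inner ear, at 0.03 in a bin without a protein-coding gene, at 0.03 in a bin with Pde8b, a phosphodiesterase, and at 0.04 in a bin with Tdrd7 and Tmod1. Taken over all domains, 434 inner bins had RT below 1. They held 6.82 gene starts and 3.32 CpG islands per Mb, compared with 27.1 and 22.6 in the 3774 inner bins at or above an RT of 3. Yet 59.5% of their bases lay in gene bodies, compared with 65.1%, and their GC content was 44.7%, compared with 47.6%.

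Between neighboring domains, 9 intervals were at most 5 bins long. The genes in them were looked up after the intervals were seen. The lowest RT, -1.74, was in an interval of 5 bins on chromosome 1 that held the Ugt1a cluster of glucuronosyltransferases, Hjurp and Trpm8. Others held Col5a1, a fibrillar collagen (lowest RT -0.13), the Bpifb4, Bpifa6 and Bpifa2 genes of secreted proteins (-0.72), Adra2c, an adrenergic receptor (-0.27), Thsd4 (-0.40) and Kalrn, a guanine nucleotide exchange factor (-0.74). The narrowest was 1 bin on chromosome 5 at -0.04, which parted domains of 2.6 and 2.2 Mb. This value and the -0.13 at Col5a1 are within the noise of 0.14 between bins. The domains that these intervals part could as well be joined. Joined, those of 3.35 and 8.25 Mb beside Col5a1 would span 11.7 Mb, more than the second-longest domain (10.95 Mb).

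Borders were followed at the 266 ends where RT crossed 0. The first bin inside had a median RT of 0.30 and the first bin outside of -0.25, which the rule fixes to either side of 0. RT then rose to a median of 2.37 at the fifth bin inside. An RT of 2 was reached at a median of 200 kb from the first bin inside (quartiles 150 and 300 kb). Outside, an RT of -2 was reached at 255 of 266 borders, at a median of 350 kb and with an upper quartile of 1825 kb. The search outside did not stop at other early runs. Long distances, up to 11000 kb, can therefore span such runs and are not widths of the border itself. At 475 kb outside, the upper quartile of RT was already 0.35. The borders were placed by RT and not by sequence, so the steepness of RT and of sequence cannot be compared here. Mean GC content was 43.6% in the first bin outside, 43.9% in the first inside, 45.3% in the fifth and 46.2% in the bin centered 975 kb inside. Gene starts went from 7.14 per Mb in the first bin outside to 8.80, 15.4 and 21.3 at the same places. In the bins between the last 2 of these places they varied from 15.0 to 18.7 per Mb, without a steady rise.

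**Figure D3:**
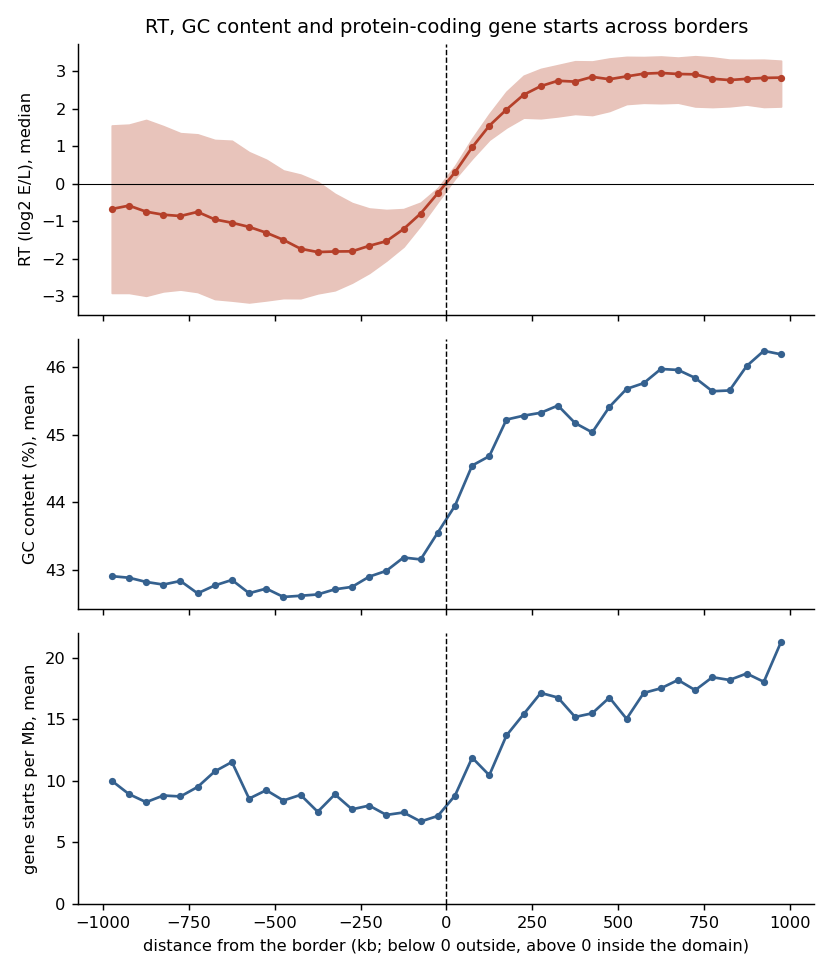
Median RT with its quartiles (shaded, top), mean GC content (middle) and mean protein-coding gene starts per Mb (bottom) by distance in kb from the border of a domain (x axis, below 0 outside and above 0 inside), over up to 266 borders. RT rises to a median of 2.37 by the fifth bin inside. GC content and gene starts are at 46.2% and 21.3 per Mb in the last bin shown, while gene starts vary between 15.0 and 18.7 per Mb in bins 6 to 19.

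Sequence was not used to choose the domains, and GC content rose in order with the length of the run. Pooled over bins, GC content was 42.4%, 43.4% and 44.4% in early runs of 1 to 9, 10 to 19 and 20 to 39 bins and 46.1% in the domains, compared with 39.8% in late bins. CpG islands numbered 9.09, 8.65 and 11.0 per Mb in the shorter runs, 14.6 in the domains and 2.32 in late bins. G-quadruplex motifs, 4 runs of at least 3 G with loops of 1 to 7 bases on either strand, rose from 218 per Mb in the shortest runs to 275 in the domains, with 198 in late bins. Soft-masked repeats fell from 32.01% to 28.6%, with 36.3% in late bins. By chromosome, GC content was higher in the domains than in shorter early runs on 19 of 19 autosomes, by a median of 2.23 points, from 0.59 on chromosome 13 to 3.94 on chromosome 4. G-quadruplex motifs were denser on 18, chromosome 6 being the exception, and repeats were less frequent on 15. Over the 138 domains GC content had a median of 45.6% and ranged from 40.03% to 50.1%, and 3 had less than the average of all autosomal bins.

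To show what was counted as a G-quadruplex motif, the first motif with the most G runs (at most 60 bases long) is given for 2 of these domains, 5′ to 3′ on its own strand with the G runs in capitals, from the RefSeq GRCm38.p6 sequence.
Longest domain, chr17:23551842-23551868, plus strand: GGGaGGGaGGGaGGGaGGGaGGGaGGG
Domain with the lowest mean RT, chr1:88390212-88390250, minus strand: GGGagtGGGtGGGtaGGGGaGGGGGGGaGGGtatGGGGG

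The bins of these motifs had RT values of 3.29 and 0.78. The chromosome 17 domain held 4266 such motifs, or 328 per Mb, and the chromosome 1 domain 249 per Mb. Across the 138 domains motif density followed GC content closely (Pearson's r = 0.83, Spearman's rho = 0.84, a description over domains that share libraries and base composition).

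Genes were concentrated in the domains. Of 20732 protein-coding genes with an RT value at their start, 9295 (44.8%) started in a domain, which held 21.3% of bins, while 29.2% started in shorter early runs and 25.9% in late bins. Density was 18.2 starts per Mb in the domains, compared with 10.4, 11.4 and 13.3 in early runs of 1 to 9, 10 to 19 and 20 to 39 bins and 3.87 in late bins. It was higher in the domains than in shorter early runs on 18 of 19 autosomes, with chromosome 13 lower by 0.86 per Mb. Single domains ranged from 4.26 to 42.8 starts per Mb, with a median of 15.2, and 18 domains had fewer than the average of all autosomal bins, 8.65. Within the domains, 46.9% of bins had no gene start, compared with 71.7% of all bins.

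Since longer runs also had higher RT, bins of like RT were compared, without matching their position within the run. GC content stayed higher in the domains. The difference from shorter early runs was 1.56 points at an RT of 0 to 1, 1.58 at 1 to 2, 1.70 at 2 to 2.5, 1.46 at 2.5 to 3 and 1.08 at 3 to 3.5, with the domains higher on 18, 17, 18, 16 and 15 of 19 autosomes. Above 3.5 it was 0.58 points, and higher on 3 of the 9 autosomes with enough bins. Gene starts differed little at like RT. The domains had 0.58 and 0.21 fewer starts per Mb at 0 to 1 and 1 to 2, and 0.47, 1.52, 1.498 and 1.52 more in the intervals above, with the domains higher on 8, 8, 11, 12 and 12 of 19 autosomes and 6 of 9 above 3.5. Over all early bins together, the domains and the shorter runs had 46.1% and 43.7% GC and 18.2 and 12.2 gene starts per Mb.

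**Figure D4:**
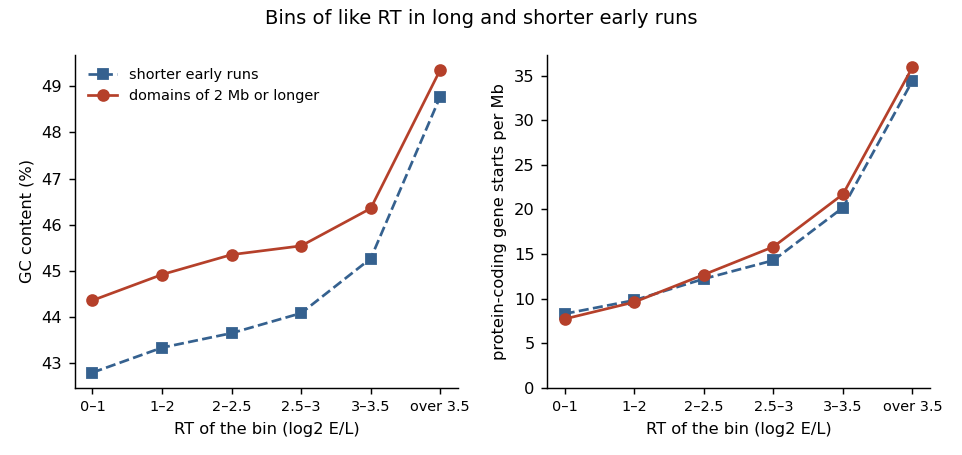
GC content in percent (left) and protein-coding gene starts per Mb (right) of bins grouped by RT (x axis), for the domains (red circles) and shorter early runs (blue squares). At an RT of 2 to 2.5 GC content is 45.4% in the domains and 43.7% in shorter runs, while gene starts are 12.7 and 12.2 per Mb.

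The promoters of genes in the domains were like those in shorter early runs. Of 20705 protein-coding genes looked up, 14655 had a RefSeq promoter within 5000 bases of the start used here. The median number of CpG in its 300 bases was 18 in the domains (quartiles 8 and 27), 19 in shorter early runs (7 and 27) and 3 in late bins (1 and 15). GGGCGG was present in 58.2%, 56.6% and 27.3%, CCGGAAG, an ETS factor site, in 15.8%, 15.3% and 4.91%, and TATAAA in 8.17%, 9.57% and 24.2%. A difference appeared among starts of low RT. At an RT of 0 to 1, the 292 promoters in domains had a median of 8 CpG and 36.6% had fewer than 5, compared with 15 CpG and 24.8% of the 925 in shorter early runs. The median was lower in the domains on 15 of 17 autosomes compared. CpG islands in bins of this RT were likewise fewer, at 4.33 compared with 6.32 per Mb, although GC content was higher. Without genes of clustered families such as Olfr, Krt and Cyp, a choice made after the values were seen, the medians were 11 and 18 CpG. At an RT above 3 the medians were 19 and 20. Position within the run was not matched in these comparisons. Of the 1063 domain bins below an RT of 1, 434 lay at least 10 bins from a border. In early runs of 1 to 9 bins, 74.7% of all bins were below 1. Any effect of position was not tested.

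All 8 lists of housekeeping genes had a share in the domains above the 44.8% of all protein-coding genes, though the aminoacyl-tRNA synthetases were close to it. Of 80 cytosolic ribosomal protein genes, 53 (66.3%) started there, in 38 domains, with a median RT of 3.54, and 2 started in late bins. Rps21 started at 3.83 and Rpl22 at 3.76. Proteasome subunits, of the complex that degrades ubiquitinated proteins, numbered 26 of 38 (68.4%), none of the 26 below an RT of 2.83. Splicing factors had 30 of 47 (63.8%), RNA polymerase subunits 17 of 27 (63.0%), mitochondrial ribosomal proteins 48 of 78 (61.5%), glycolytic enzymes 10 of 17 (58.8%) and complex I subunits 19 of 34 (55.9%). Among the glycolytic enzymes were Aldoc at 3.72, Pkm at 3.59, Eno1 at 3.58 and Ldha at 3.25. Aminoacyl-tRNA synthetases, with 17 of 37 (45.9%), were near this background, with 48.6% in shorter early runs. Because most of these genes are early, the share of early starts is the closer comparison, and 60.5% of all early gene starts were in the domains. Against this share the lists stood closer to all genes. It was 74.3% for the proteasome, 70.6% for mitochondrial ribosomal proteins, 68.2% for splicing factors, 67.9% for cytosolic ribosomal proteins, 63.0% for RNA polymerase subunits and 62.5% for glycolytic enzymes, and it was lower than among all early starts for complex I subunits, at 59.4%, and the synthetases, at 48.6%.

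Genes of replication licensing and origin firing, which load and activate the replicative helicase, had 15 of 29 (51.7%) in the domains, compared with 44.8% of all genes, and 55.6% of their early starts, compared with 60.5%. Recql4 at 3.78, Cdc6, a loader of the helicase, at 3.72, and Cdt1, its partner in loading, at 3.60 were the earliest, and Mcm2, a helicase subunit, at 2.07 the latest of the 15. Core pluripotency factors were all early but mostly not in the domains. The 7 of 18 inside were Lin28a (3.57), Pou5f1 (3.51), Klf2 (3.49), Esrrb (3.46), Sall4 (3.39), Tdgf1 (3.27) and Tfcp2l1 (3.26). The other 11, among them Prdm14 (3.38), Sox2 (3.35), Nanog (3.17) and Klf4 (2.96), lay in shorter early runs. The share inside, 38.9%, was below the 60.5% of all early gene starts.

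Developmental gene families were split unevenly, while 44.8% of all gene starts and 60.5% of early gene starts were in the domains. Of 19 Wnt genes, which encode secreted signaling proteins, 16 (84.2%) started in a domain, none in a shorter early run, and Wnt2 (-2.33), Wnt5a (-1.75) and Wnt16 (-0.25) in late bins. The 16 lay in 12 domains at RT values from 2.27 for Wnt9b to 3.58 for Wnt1 and Wnt10b, which share a bin, as do Wnt6 and Wnt10a at 3.23. Hox genes, the homeobox regulators of the body axis, were all early, but the 10 inside were the Hoxb cluster in 1 domain of 5.7 Mb on chromosome 11, from Hoxb1 and Hoxb2 at 2.39 to Hoxb13 at 3.46. The 29 genes of the other clusters lay in shorter early runs, between 0.93 and 3.09. Replication-dependent histones had 12 of 67 (17.9%) in the domains, 10 of them Hist2 genes on chromosome 3 at 2.21 or 2.87 and 2 of them Hist3 genes on chromosome 11. Clustered protocadherins had 9 of 56 (16.1%), all Pcdha genes at the last bins of 1 domain, at 1.12 or 0.46. The shares of early starts in the domains were 100% for Wnt genes, 25.6% for Hox genes, 26.7% for these histones and 27.3% for clustered protocadherins.

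Olfactory and vomeronasal receptors and keratins had shares below the background. Olfactory receptors had 80 of 1127 (7.10%), vomeronasal receptors 8 of 312 (2.56%), and keratins with keratin-associated proteins 22 of 110, most of the rest being late. Their shares of early starts, in the same order, were 40%, 22.9% and 51.2%, compared with 60.5% of all early gene starts. Those inside the domains were at lower RT than housekeeping genes, with medians of 1.78, 1.86 and 1.69. None of 23 giant neuronal adhesion and synapse genes started in a domain or in any early bin. Collagens (18 of 42, 42.9%), neurotransmitter receptor subunits (22 of 54, 40.7%) and cytochrome P450 genes (44 of 94, 46.8%) were near the 44.8% of all genes, while their shares of early starts, at 72%, 66.7% and 80%, were above 60.5%. Solute carriers (182 of 358, 50.8%) and zinc finger protein genes (209 of 409, 51.1%) were somewhat above the share of all genes, but had 62.5% and 56.6% of their early starts in the domains, the latter below 60.5%. Genes of such families lie in clusters and share bins, so a count of genes is not a count of independent positions.

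**Figure D5:**
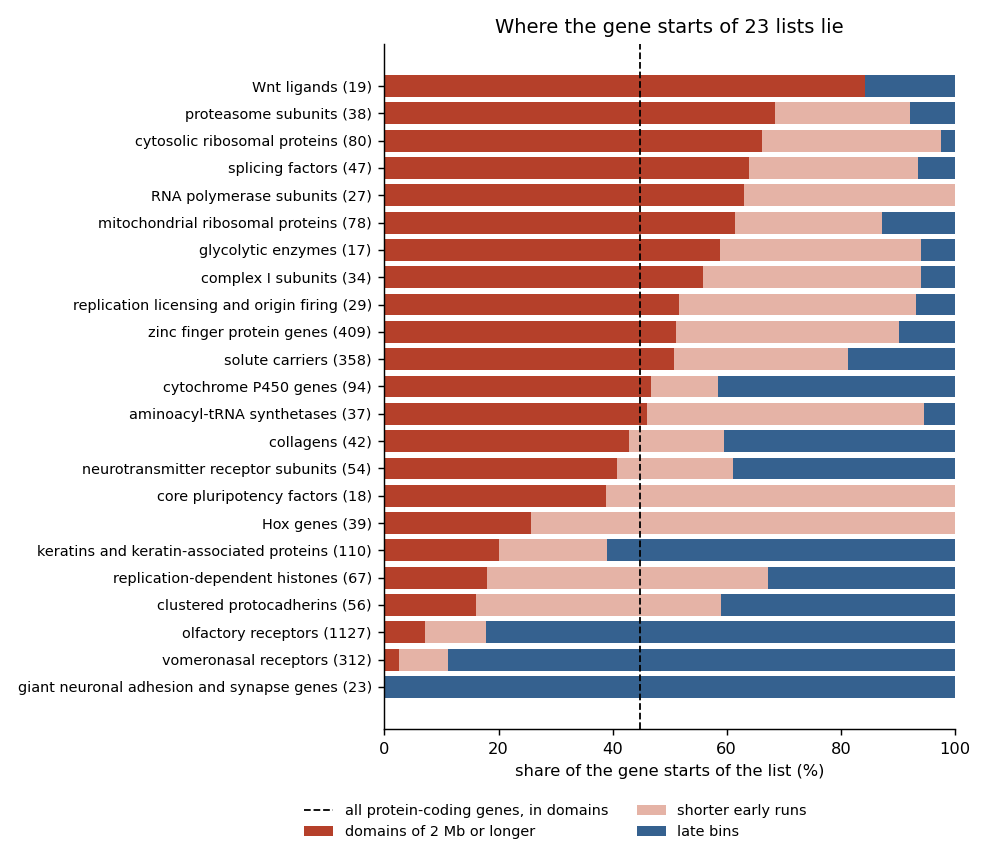
Share in percent (x axis) of the gene starts of 23 lists (y axis, number of genes in parentheses) that lie in the domains (red), in shorter early runs (pink) and in late bins (blue). The dashed line is the 44.8% of all protein-coding genes that start in a domain. Wnt genes lie in domains (84.2%) or in late bins, and giant neuronal genes wholly in late bins.

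Genes that started in the domains had a median length of 16.3 kb, compared with 23.6 kb in shorter early runs and 13.0 kb in late bins. Of the genes 500 kb or longer, 16 (0.172% of those in domains) started in a domain, 41 (0.676%) in shorter early runs and 161 (2.995%) in late bins. Some of the 16 were overlapping gene models that started in the same bin, so 16 is not a count of separate loci. The whole gene lay inside the domain for 4 of the 16. Camta1, a calmodulin-binding transcription activator, was 945 kb long and started at an RT of 3.19, with a lowest RT along the gene of 0.24. Tenm4, a teneurin, was 740 kb long, from 2.99 at its start to a lowest of 0.84. For Smyd3, a methyltransferase, these values were 2.81 and 0.59, and for Rad51b, a recombination protein, 2.54 and 0.41. Each of these genes overlapped a long stretch without a gene start, the longest being 16 bins (0.8 Mb, mean RT 1.69) over Rad51b. Others left the domain altogether, such as Ctnna3, an alpha catenin, which started at 3.16 and fell to -4.02, and Dlgap2, a postsynaptic protein, from 3.14 to -2.12. Gene pairs with divergent starts at most 1 kb apart involved 8.63% of genes in the domains, 8.87% in shorter early runs and 2.05% in late bins.

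Among RefSeq genes by their midpoint, 34.7% of lncRNA genes, 26.1% of snoRNA genes, 29.5% of tRNA genes and 22.5% of pseudogenes were in the domains, compared with 44.7% of protein-coding genes. The tRNA genes were mostly in shorter early runs (54.7%). Of 60 rRNA genes, 52 were in the domains, but 48 of them in a single domain on chromosome 8.

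The domains differed among themselves in a correlated way, given here as a description over 138 domains from the same libraries. Mean RT followed gene starts per Mb (Pearson's r = 0.69, Spearman's rho = 0.76), GC content (0.46 and 0.49) and length (0.39 and 0.41). The relation with length is set in part by the rule, since the low bins at the borders take a larger share of a shorter run. GC content and gene density were also related (0.50 and 0.59). Bin by bin inside single domains, the Spearman correlation of RT with GC content was positive in all but 17 domains, with a median of 0.29, and that with gene starts in 128, with a median of 0.30. Border bins, where RT is low by the rule, are included in these values.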

How the data were processed

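Repli-seq libraries of the early and late S-phase fraction (2 each) were made from diploid F121-9 mESCs. According to the study's methods, the authors scaled reads to RPM within a fraction and deposited the log2 of the early over the late value, 1 per 50 kb bin, for 51427 bins. The submitters' processing notes name Bowtie2, SAMtools, bedtools and mm10. How replicates were combined, and any smoothing or scaling, are not given in the sources used here. Reads of a cas/129 hybrid on the reference genome may map unequally where the strains differ, which was not tested. The depth per library is unknown, and intervals cover counting of bins only.

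From these values, runs of at least 40 bins with RT above 0 were taken as domains on the 19 autosomes. Late bins were those at or below 0. Gene starts were counted from GENCODE vM21, and bases, CpG islands (windows of 200 bases, at least 55% GC, observed over expected CpG of at least 0.65, at least 500 bases after merging), G-quadruplex motifs and soft-masked repeats from the RefSeq GRCm38.p6 sequence. Regions are not samples, so no test was run, and values stand beside shorter early runs, late bins and all autosomal bins. Domains named are the 5 longest, those with the highest and lowest mean RT, gene starts per Mb and GC content, and that with the deepest internal dip. Genes named are the longest gene and list members of those domains in order of position, genes of 500 kb or longer, genes in the deepest dips, and up to 8 members by position of each list. Exceptions, and list members given as the earliest or latest, were chosen after their values were seen. The domains and the 23 gene lists were chosen with earlier results of these data known. Alternatives varied the RT limit, the minimum length, smoothing, bridging, the chromosomes, the bins, the gene set and the motif. The steps were tested on simulated data. Python 3.11.15, numpy 2.4.6, scipy 1.17.1, pandas 2.3.3 and matplotlib 3.10.9 were used. Some items that these rules would name are not reported here.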

Additional observations from a re-analysis of the deposited data

How the results depend on the processing

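Values were recomputed under other settings in 54 cases, not counting one added after seeing the data. The number of domains was taken as close when within 1.5 times the value reported, a share within its 95% binomial interval and a median within a 95% order-statistic interval over domains. By these limits 33 stayed close and 21 moved. The cut on RT and the minimum length moved the size of the set most. With RT above 0.5 in every bin, the domains held 16.4% of bins and 38.3% of protein-coding gene starts, with a median of 17.2 starts per Mb. With RT above -0.5 they held 25.1% of bins and 49.9% of gene starts. A minimum of 30 bins gave 201 domains, compared with 138, with 25.8% of bins, 52.6% of gene starts and a median length of 2.45 Mb. A minimum of 60 bins left 71 domains with 14.6% of bins, 33.4% of gene starts, a median length of 4.35 Mb, a median GC content of 46.4% and a median of 17.9 starts per Mb. A running median over 5 bins gave 22.5% of bins and 46.6% of gene starts, and adding X gave 20.2% and 43.2%. The median of starts per Mb was 16.9 over inner bins alone and 32.1 when all annotated genes were counted. With loops of 1 to 3 bases the median of G-quadruplex motifs was 136 per Mb, compared with 255. Without clustered gene families, an alternative added after seeing the data, the share of promoters with fewer than 5 CpG at an RT of 0 to 1 in the domains was 27.1%, compared with 36.6%. The same exclusion gave 19.6% in shorter early runs, compared with 24.8%.

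No paired analysis was possible because the deposited profile has 1 value per bin for all replicates and fractions. For the same reason, leaving out each replicate in turn and the replicate number as a block were not run. Noise between bins, an SD of 0.14, exceeds the value of the deepest internal dips, so single long domains there would split with a small change in RT.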

Other observations

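On X, which was not among the chromosomes used, 2 runs of bins with RT above 0 were 2 Mb or longer. They measured 2.4 and 3.2 Mb, with mean RT values of 2.13 and 2.06.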
